A study of Homo sapiens with 4 samples.

Results

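The m6A peaks described here lie in 7 stretches of chromosome 19 that are rich in KRAB zinc finger genes. A peak was a member when its summit lay between 9.4 and 9.9 Mb (W1), 11.7 and 12.7 Mb (W2), 19.8 and 24.3 Mb (W3), 36.6 and 38.4 Mb (W4), 44.3 and 45.0 Mb (W5), 52.4 and 54.1 Mb (W6) or 56.6 and 59.1 Mb (W7), on the genome build hg19. These windows held 396 of the 9441 peaks called in H1975 cells that carried a control shRNA (NC-sh) and 448 of the 12252 peaks called in those that carried a METTL3 shRNA (METTL3-sh), 844 of 21693 peaks in all. The rest of chromosome 19, with 300 and 366 peaks, served as the comparison. H1975 is an established human lung adenocarcinoma (LUAD) line. The methyltransferase complex that writes m6A on mRNA has METTL3 as its catalytic subunit. The study comprised 4 samples, 1 Input and 1 MeRIP library per condition, after 48 h of lentiviral interference. In MeRIP-seq, RNA fragments that carry m6A are pulled down with an antibody and set against the Input RNA. As each condition had 1 MeRIP library, differences between NC-sh and METTL3-sh could not be checked against replicates, and no test was made. The design text of the series speaks of 3 replicates in a group, and whether a listed library stands for 1 culture or several is not given in the sources used here. Intervals cover counting error or the spread among peaks or pairs taken as independent, and no variation between libraries. Neighbouring peaks are not independent of each other, so the intervals may be too narrow.

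KRAB zinc finger proteins are the largest family of transcription factors in the human genome. Their tandem C2H2 zinc fingers bind DNA, often within transposable elements, and the KRAB domain recruits the corepressor TRIM28 (KAP1), which brings in histone methylation and silences the bound site. The genes arose by repeated tandem duplication, so relatives sit side by side in clusters, above all on chromosome 19, and in most of them a single long last exon encodes the whole finger array. m6A is often found in long internal exons and near stop codons. In RefSeq's gene table, 265 of the 1451 protein-coding genes of chromosome 19 (18.3%) have a symbol beginning with ZNF, ZFP, ZSCAN, ZIK1 or ZIM, and they make up 46.8% of the 566 such genes in the genome. The longest unbroken row of such neighbours holds 27 genes, from ZNF737 to ZNF681, and includes ZNF91, known as a repressor of SVA retrotransposons. The next rows hold 24 genes from ZNF627 to ZNF791, 24 from ZNF565 to ZNF793, 23 from ZNF772 to ZNF256 and 20 from ZNF283 to ZNF180. That table is on GRCh38.p14 and the peaks are on hg19, so it gives names and neighbours only. A symbol does not show whether a gene encodes a KRAB domain, so these are not counts of KRAB zinc finger genes. No peak was assigned to a gene, and the gene content of the windows was not checked by position.

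The reagent that sets METTL3-sh apart from NC-sh is the METTL3 shRNA, whose 21 nt sequence is given in the study's list of shRNA and sgRNA sequences as follows.
h-sh-METTL3: gctgcacttcagacgaattat

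Within the files, the name of every peak starts with H1299, which is a different LUAD line. The sample labels give H1975, which is used here. Pileup, the scaled number of MeRIP reads at a summit, moved in steps of 0.327 (NC-sh) or 0.364 (METTL3-sh), which allowed reads at the summit to be counted. All deposited peaks had at least 24 reads there, and none had a fold enrichment below 6. Fold enrichment is pileup over the local expectation from the Input, with 1 added to both. On chromosome 19, 26 NC-sh and 29 METTL3-sh summits lay beyond the last gene of the GRCh38 table, so these positions are not GRCh38. How reads that match several related zinc finger genes were placed is not given in the sources used here, and peaks in near-identical sequence are uncertain for that reason.

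Peaks were denser in the windows than over the rest of chromosome 19 as a whole, in both libraries. They cover 12.7 Mb, 21.5% of the chromosome up to its last peak, and held 56.9% of its NC-sh peaks (95% Wilson CI 53.2 to 60.5%) and 55% of its METTL3-sh peaks (51.6 to 58.4%). There were 31.2 NC-sh peaks per Mb in the windows and 6.47 per Mb in the rest, which is 4.82 times as many (95% CI 4.15 to 5.60, from Poisson counting error). In METTL3-sh there were 35.3 and 7.89 per Mb, a ratio of 4.47 (3.89 to 5.13). The rest includes the centromere. Peaks covered 17.7 kb of each Mb of window in NC-sh and 20.4 kb in METTL3-sh, against 3.62 and 4.20 kb in the rest. The high density was thus found with the control shRNA as well as with METTL3 knocked down.

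**Figure D1:**
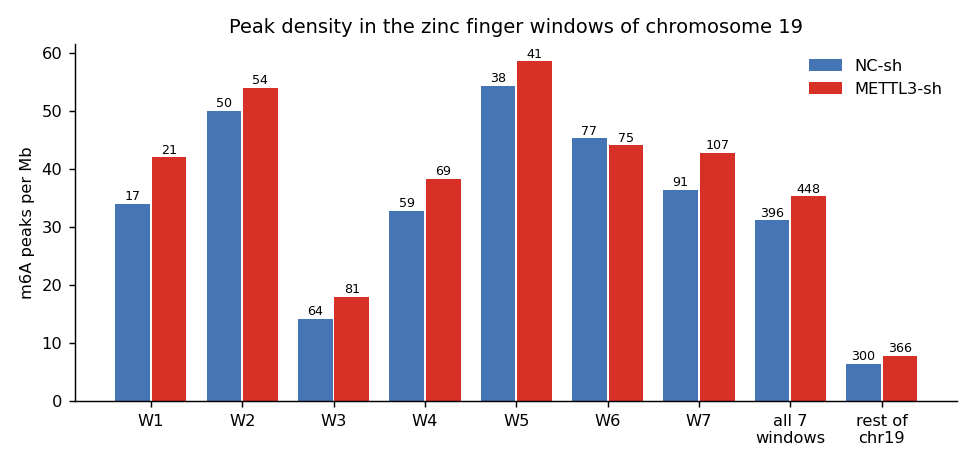
Peaks per Mb (bar height) in each window, in all 7 windows and in the rest of chromosome 19, for NC-sh (blue) and METTL3-sh (red), with the number of peaks above each bar. All 7 windows stand above the rest of the chromosome, and W3 is the sparsest of them, at 14.2 and 18.0 peaks per Mb.

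The windows differed among themselves in density. W5 had the most NC-sh peaks per Mb at 54.3, followed by W2 at 50 and W6 at 45.3. W7, W1 and W4 lay between 32.8 and 36.4, and W3, the longest window and the one beside the centromere, had 14.2. The 7 windows stood in the same order in METTL3-sh, from 58.6 in W5 to 18.0 in W3. Peaks were spread through most of the windows and did not sit at a single place. Of the 100 kb bins of W2, W5 and W6, none was without a peak in either library. In W3, 17 of 45 bins had no NC-sh peak and 14 had no METTL3-sh peak. The fullest 100 kb bin of W3, from 21.6 to 21.7 Mb, held 7 NC-sh and 10 METTL3-sh peaks. The fullest of all the windows was from 58.9 to 59.0 Mb in W7, with 11 and 13.

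Peaks in the windows came in close groups. The higher density of peaks there by itself shortens the distances between summits, and its part was not tested. A further summit of the same library lay within 5 kb for 257 of 396 NC-sh peaks (64.9%, 95% Wilson CI 60.1 to 69.4%) and 297 of 448 METTL3-sh peaks (66.3%, 61.8 to 70.5%). In the rest of chromosome 19 this was 29.0% (24.2 to 34.4%) and 32.5% (27.9 to 37.5%), and on other chromosomes 32.3% and 35.5%. The median distance to the nearest summit was 1950 bp in NC-sh and 1814.5 bp in METTL3-sh, against 17179 and 15106.5 bp in the rest. The pattern held in each window, with a lowest share of 54.9% in NC-sh (W7) and 51.2% in METTL3-sh (W5). With summits up to 5 kb apart joined, the 396 NC-sh peaks formed 249 groups, of which 82 had 2 peaks and 28 had 3 or more. The 448 METTL3-sh peaks formed 278 groups, 92 of 2 peaks and 35 of 3 or more. In the rest of the chromosome, 5 of 254 groups in NC-sh and 10 of 300 in METTL3-sh had 3 or more peaks. Of the 28 larger NC-sh groups in the windows, 17 (60.7%) overlapped a larger METTL3-sh group, which is 48.6% of the 35 METTL3-sh groups.

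**Figure D2:**
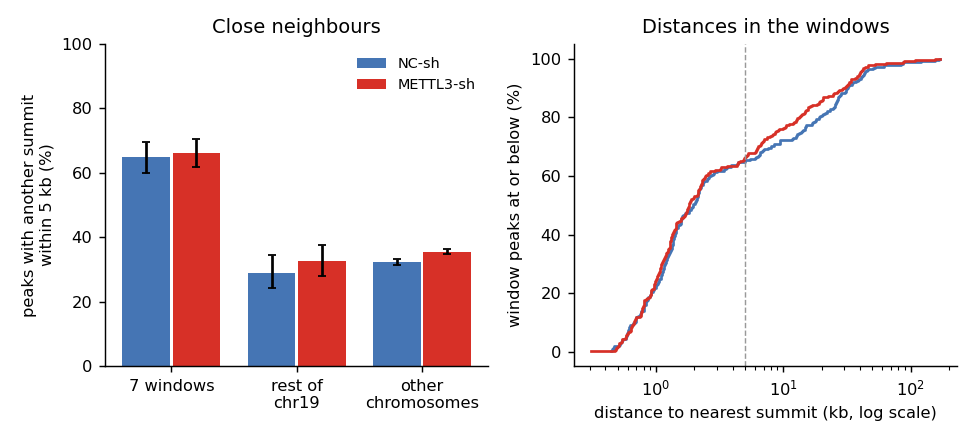
Left, the share of peaks with another summit of the same library within 5 kb in the windows, the rest of chromosome 19 and other chromosomes, with 95% Wilson intervals. Right, the cumulative share of window peaks by distance to the nearest summit in kb on a log scale, with a dashed line at 5 kb, where NC-sh (blue) has reached 64.9% and METTL3-sh (red) 66.3%.

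The following groups were picked after their values were seen, to show what such a group looks like. In W4, 4 peaks stood in a row at chr19:37236821-37241739 in NC-sh, with 647, 2070, 1239 and 844 reads at their summits. METTL3-sh had the same 4 peaks, with 398, 1741, 1106 and 732 reads. Their fold enrichment was 14.2, 37.7, 20.3 and 16.3 in NC-sh and 12.1, 30.2, 19.4 and 22.3 in METTL3-sh. The second peak was the tallest and the first the lowest in both libraries, and all 4 had fewer reads in METTL3-sh. In W3, a group at chr19:21623912-21632024 had 4 peaks in NC-sh with 131, 324, 529 and 496 reads. In METTL3-sh the 4 overlapping peaks had 252, 384, 555 and 680 reads, and a further weak peak of 98 reads lay among them. Here all 4 shared peaks had more reads in METTL3-sh, while fold enrichment was higher in the first (14.6 and 30.9) and lower in the other 3. At the last it was 17.8 and 9.93, with a local expectation of 8.20 and 24.0. The largest group of the windows was in W5 at chr19:44470512-44479945, with 7 NC-sh peaks of 100 to 538 reads. METTL3-sh had 6 peaks of 138 to 439 reads in its place, of which 4 overlapped an NC-sh peak.

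Individual peaks in the windows rested on fewer reads than those elsewhere on the chromosome but stood higher over their Input. The median number of reads at the summit was 124 in NC-sh (95% CI from order statistics 109 to 141) and 129 in METTL3-sh (112 to 144), against 314.5 (244 to 367) and 217.5 (180 to 287) in the rest of chromosome 19. As deposited, the median pileup of window peaks was 40.6 (NC-sh) and 46.9 (METTL3-sh), against 103 and 79.1 in the rest. The median local expectation, in the same scaled unit as pileup, was 2.26 (2.0 to 2.74) and 2.20 (2.0 to 2.80) in the windows, and 7.0 in the rest in both libraries. The Input signal around window peaks was thus low. It was at or very close to the lowest value of the library in 6.82% of the window peaks of NC-sh and 10.5% of those of METTL3-sh. In the rest of chromosome 19 this was 4.67% and 7.65%, and on other chromosomes 10.9% and 17.6%. The median fold enrichment was 11.3 (10.6 to 12) in NC-sh and 11.6 (10.5 to 12.7) in METTL3-sh, against 10.1 (9.61 to 10.9) and 9.55 (9.02 to 10.1) in the rest. The intervals of METTL3-sh did not overlap, whereas those of NC-sh did.

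Window peaks were about as long as other peaks of chromosome 19 and longer than peaks of other chromosomes. The median length was 447 bp in NC-sh (409 to 485 bp) and 462 bp in METTL3-sh (432 to 498 bp), against 455 and 426.5 bp in the rest of chromosome 19 and 390 and 367 bp on other chromosomes. Peaks of at least 1 kb made up 50 of 396 in NC-sh (12.6%) and 55 of 448 in METTL3-sh (12.3%). The share of such peaks on other chromosomes was lower by 4.80 percentage points in NC-sh (95% Newcombe CI of the difference 1.83 to 8.48) and by 5.09 in METTL3-sh (2.32 to 8.48). Against the rest of chromosome 19 the difference was 2.29 (-2.63 to 6.98) and 3.26 (-1.08 to 7.47), so at this number of peaks it could not be told from 0. When the rest was weighted to the reads of the window peaks, its share was 4.09% for NC-sh and 5.33% for METTL3-sh. At similar reads, peaks of at least 1 kb were thus more frequent in the windows, at 12.6% and 12.3%. The longest NC-sh peak of the windows, at chr19:11978154-11980167 in W2, spanned 2014 bp with 99 reads at its summit. The longest METTL3-sh peak, at chr19:12222063-12224317 in W2, spanned 2255 bp with 983 reads and overlapped 2 NC-sh peaks. More than 1 overlapping peak in the other library was found for 2.78% of the window peaks of NC-sh and 3.57% of those of METTL3-sh, against 1.0% and 1.09% in the rest.

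W4 held the peaks with most reads at the median in both libraries, W6 those with fewest in NC-sh and W3 in METTL3-sh. Median reads at the summit in NC-sh were 346 in W4, 223 in W1, 136 in W7, 123.5 in W2, 120.5 in W5, 97.5 in W3 and 83 in W6. The interval of W4 (156 to 462) did not overlap those of W3 (68 to 137) and W6 (69 to 97), while those of the neighbours in this order overlapped each other. In METTL3-sh the medians ran from 229 in W4 (149 to 369) to 91 in W3 (68 to 130). Median fold enrichment in NC-sh was also highest in W4, at 15.9 (12.8 to 18.7), and lowest in W5, at 9.26 (7.18 to 13.3). Long peaks were rare in W3, where 1 kb was reached by 3 of 64 peaks in NC-sh and 2 of 81 in METTL3-sh, against 11 of 59 and 13 of 69 in W4.

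The tallest peaks were called in both libraries, with 1 exception. At chr19:9676484-9677879 in W1, 8506 reads covered the summit in NC-sh and 7831 in METTL3-sh. Fold enrichment there was 164 and 150, the highest of all window peaks in both libraries. The peak at chr19:38187425-38188383 in W4 had 3298 and 3671 reads, with fold enrichments of 34.9 and 29.0. The third in NC-sh, at chr19:37853250-37853897 in W4, had 2328 reads against 2711 in METTL3-sh, and its fold enrichment was 34.7 and 42.9. The third in METTL3-sh, at chr19:58826160-58826510 in W7, had 3116 reads and no NC-sh peak overlapping it. It stood on the highest local expectation of the windows, 120, so that its fold enrichment was 9.37.

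Window peaks were shared between the libraries more often than other peaks of similar depth. Against the rest of chromosome 19 this was less certain in NC-sh, where the intervals overlapped in each class of reads. A METTL3-sh peak overlapped 322 of the 396 NC-sh peaks by at least 1 bp (81.3%, 95% Wilson CI 77.2 to 84.8%), and an NC-sh peak overlapped 316 of the 448 METTL3-sh peaks (70.5%, 66.2 to 74.6%). Over all peaks of the lists these shares were 76.2% and 58.6%. In the rest of chromosome 19 they were 78.7% and 63.9%, lower by 2.65 percentage points in NC-sh (95% Newcombe CI -3.29 to 8.75) and by 6.60 in METTL3-sh (0.138 to 13.1). The window peaks had fewer reads, and sharing was more frequent in classes with more reads. Weighted to the reads of the window peaks in 5 classes, the share in the rest was 70.6% for NC-sh and 55.5% for METTL3-sh, and on other chromosomes 72.0% and 57.8%. Both stand below the 81.3% and 70.5% of the windows, but no interval was computed for the weighted shares.

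**Figure D3:**
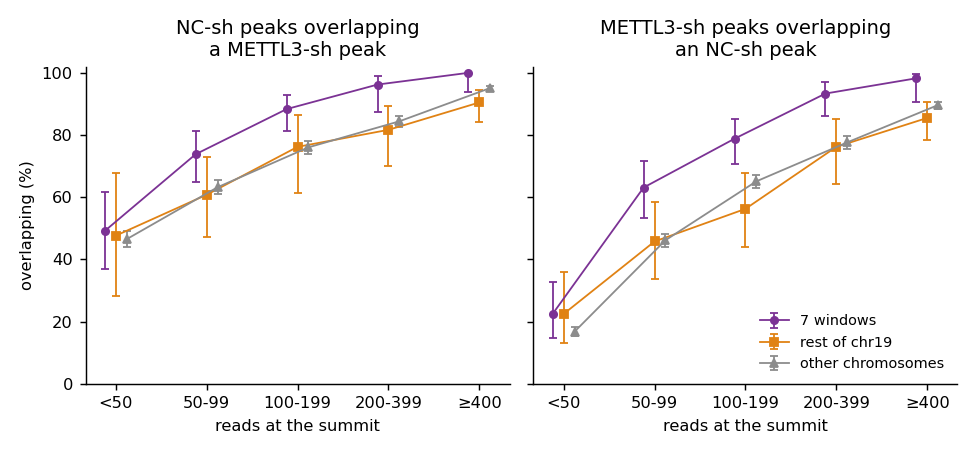
Share of peaks that overlap a peak of the other library, by reads at the summit, for the windows (purple circles), the rest of chromosome 19 (orange squares) and other chromosomes (grey triangles), with 95% Wilson intervals. From 50 reads upwards the windows lie above both other sets in each class and in both libraries, while below 50 reads the 3 sets are close.

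From 100 to under 200 reads, 106 of 120 NC-sh window peaks overlapped a METTL3-sh peak (88.3%, 81.4 to 92.9%), against 32 of 42 in the rest (76.2%, 61.5 to 86.5%) and 76.0% on other chromosomes (73.9 to 78.0%). The interval of the windows lies above that of other chromosomes and overlaps that of the rest, which had fewer peaks. In the METTL3-sh list the same class gave 93 of 118 in the windows (78.8%, 70.6 to 85.2%), 36 of 64 in the rest (56.2%, 44.1 to 67.7%) and 65.1% on other chromosomes (63.0 to 67.2%). At 400 reads or more, all 57 NC-sh and 56 of 57 METTL3-sh window peaks were shared, against 114 of 126 and 112 of 131 in the rest. Other values moved with this result. In the same class, window peaks had a higher median fold enrichment (12.3 against 9.38 in the rest in NC-sh, and 13 against 8.89 in METTL3-sh), so that they lay further from the limit of 6. They were also longer, with medians of 477 and 497 bp against 402 and 401.5 bp. The part of these values in the sharing was not tested. Among the windows, sharing in NC-sh ran from 65.8% in W5 (49.9 to 78.8%) to 91.5% in W4 (81.6 to 96.3%) and in METTL3-sh from 63.4% in W5 to 76.2% in W1.

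The 74 NC-sh peaks without a METTL3-sh partner made up 18.7% of the window peaks, against 23.8% of all NC-sh peaks. The 132 METTL3-sh peaks without an NC-sh partner made up 29.5%, against 41.4% of all METTL3-sh peaks. Nearly all were shallow. Their median was 55 reads in both libraries, against 146.5 reads in shared NC-sh and 171.5 in shared METTL3-sh window peaks. At least 200 reads were reached by 2 of the 74 (2.70%) and 7 of the 132 (5.30%). In the rest of chromosome 19 this was 23 of 64 (35.9%) and 34 of 132 (25.8%), and on other chromosomes 16.7% and 13.9%. Shared peaks were deeper in the rest as well. There 69.1% (NC-sh) and 68.4% (METTL3-sh) of them reached 200 reads, against 33.5% and 44.3% in the windows. The 3 unshared NC-sh peaks with the highest −log10 q were at chr19:44478489-44479945 in W5 (150 reads, fold enrichment 16.7), chr19:58520739-58521018 in W7 (166 reads, 13.2) and chr19:53912824-53913413 in W6 (179 reads, 11.9). In METTL3-sh the first was the peak of 3116 reads described above. It was followed by chr19:53268719-53269242 in W6 (251 reads, fold enrichment 23.1) and chr19:44980542-44981766 in W5 (320 reads, 13). As the lists hold no peak with a fold enrichment below 6, a peak without a partner is one without a partner of at least that enrichment.

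The windows held 448 peaks in METTL3-sh and 396 in NC-sh. The ratio of METTL3-sh to NC-sh peaks was 1.13 in the windows (95% CI 0.988 to 1.30), 1.22 in the rest of chromosome 19 (1.05 to 1.42) and 1.31 on other chromosomes (1.27 to 1.34). The interval of the windows includes 1 and overlaps that of the rest. Among the single windows the ratio ran from 0.974 in W6, with 77 and 75 peaks, to 1.27 in W3, with 64 and 81, and all 7 intervals included 1. The order of the regions turned when weak peaks were left out. When only peaks that reached the pooled median of −log10 q were kept, the windows held 170 from NC-sh and 221 from METTL3-sh, a ratio of 1.30 (1.06 to 1.59), against 1.15 in the rest (0.949 to 1.40) and 1.21 on other chromosomes (1.17 to 1.26).

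Fold enrichment was compared in 281 pairs of window peaks that overlapped only each other. Their summits lay a median of 25 bp apart. The median fold enrichment of these pairs was 12.8 with NC-sh and 14.6 with METTL3-sh. As METTL3-sh over NC-sh, the log2 ratio had a median of 0.15 (95% CI 0.051 to 0.24, SD across pairs 0.73). It was 0.022 (-0.036 to 0.12) in the 224 pairs of the rest of chromosome 19 and 0.13 in all 6863 pairs. METTL3-sh had the lower fold enrichment in 111 window pairs (39.5%, 95% Wilson CI 34.0 to 45.3%), close to the 41.1% of all pairs, and in 46.9% of pairs in the rest. The pairs hold only peaks present in both lists, so the 74 NC-sh window peaks without a METTL3-sh partner are not among them. Reads at the summit were higher in METTL3-sh in 196 window pairs (69.8%, 64.1 to 74.8%), against 62.5% of all pairs and 55.8% of the rest. The difference from the rest was 13.9 percentage points (95% Newcombe CI 5.47 to 22.2). The median log2 ratio of reads was 0.21 in the windows (0.15 to 0.29) and 0.067 in the rest (-0.015 to 0.14). That of deposited pileup was 0.36 and 0.22, as its step is larger in METTL3-sh. Total library depth is not given in the sources used here, so the level of these ratios has no fixed zero, and only their difference between regions of the same libraries can be read.

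**Figure D4:**
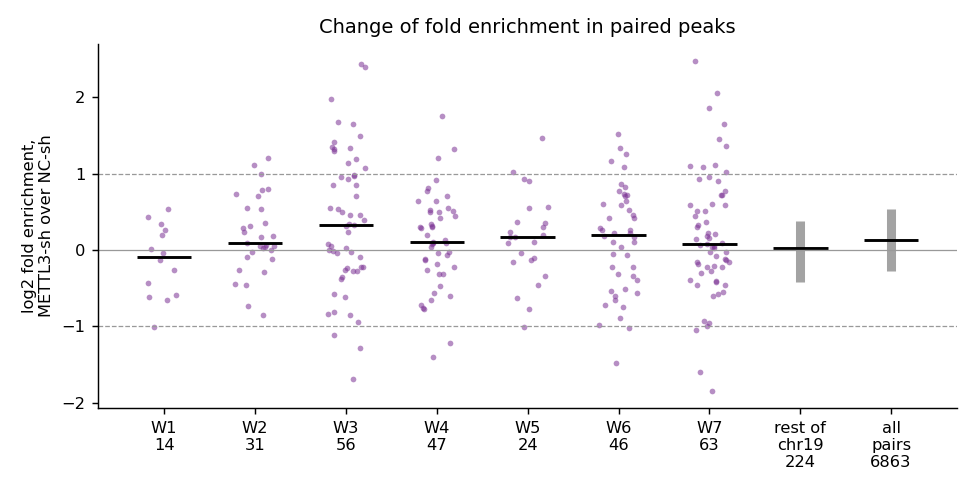
Log2 ratio of fold enrichment, METTL3-sh over NC-sh, for each of the 281 window pairs (points), with the median of each window (black bars) and, for the rest of chromosome 19 and all pairs, the quartiles (grey bars) and median. The number of pairs is given under each label, and dashed lines mark a doubling and a halving; 14 of the 36 doublings lie in W3.

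Large increases of fold enrichment in METTL3-sh were more frequent in the windows than in the rest of the chromosome. A doubling or more was seen in 36 of 281 pairs (12.8%, 95% Wilson CI 9.40 to 17.2%), against 9.40% of all pairs. In the rest of chromosome 19 it was seen in 5 of 224 (2.23%, 0.957 to 5.12%), a difference of 10.6 percentage points (95% Newcombe CI 6.11 to 15.2). Against other chromosomes the difference was 3.31 (-0.181 to 7.78) and could not be told from 0. Other chromosomes had 9.50% (8.80 to 10.2%), an interval that does not overlap that of the rest of chromosome 19. Weighted to the reads of the window pairs, the share of doublings was 3.15% in the rest and 10.6% on other chromosomes. No interval was computed for these weighted shares. That of the rest leans on few pairs, as 0 of 11 doubled below 50 reads, 0 of 25 from 50 to under 100 and 3 of 32 from 100 to under 200. A halving or more was seen in 12 window pairs (4.27%), against 4.78% of all pairs and 3.57% of the rest. In reads at the summit alone, 11 window pairs doubled (3.91%, against 3.12% of all pairs) and 1 halved (0.356%, against 0.976%). In the rest, 4 pairs doubled in reads (1.79%), and the difference of 2.13 percentage points (95% Newcombe CI -1.08 to 5.28) could not be told from 0. The higher frequency of doublings in the windows than in the rest was thus seen in fold enrichment and not resolved in reads.

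W3, the window beside the centromere, held 14 of the 36 doublings among its 56 pairs (25%, 15.5 to 37.7%). In the other 6 windows there were 22 among 225 pairs (9.78%), and the difference was 15.2 percentage points (95% Newcombe CI 4.69 to 28.3). W3 was singled out among 7 windows after the values were seen. Without W3, the share in the windows was close to the 9.40% of all pairs. It was higher than the 2.23% of the rest of the chromosome by 7.55 percentage points (3.21 to 12.3). Neighbouring pairs are not independent, so these intervals may be too narrow. The median log2 ratio in W3 was 0.33 (-0.018 to 0.71), the highest of the windows, and in W1 it was -0.087 (-0.61 to 0.34), the lowest. No pair in W1 doubled, and 8 of its 14 pairs were lower in METTL3-sh. In the 14 doublings of W3, the median reads at the summit were 128.5 for NC-sh and 209 for METTL3-sh, and the median local expectation was 2.50 and 1.10. Reads were higher in METTL3-sh in 13 of the 14 and the expectation was lower in 12, and in 5 of the 14 more than 50% of the log2 change came from the expectation. Over all 36 doublings of the windows, the expectation was lower in 32, reads were higher in 33, and the expectation gave over 50% of the change in 18. Among the 645 doublings of all pairs, these counts were 577, 558 and 358. In the 12 halvings of the windows, the expectation gave over 50% of the change in 11. Over the 328 halvings of all pairs this was 292. Fold enrichment is made from both terms. A doubling therefore requires more reads, a lower expectation or both, and these counts follow partly from how the pairs were picked. The part of the Input term in the difference between the regions was not tested.

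Among the 140 window pairs whose mean fold enrichment was in the upper part of the window pairs, above their median, the largest increase was at chr19:57977670-57978060 in W7. Reads at the summit were 181 (NC-sh) and 229 (METTL3-sh), the local expectation was 7.0 and 1.0, and fold enrichment was 7.53 and 42.1. The next were in W3. At chr19:19823520-19823945 the reads were 84 and 209, the expectation 3.0 and 1.0 and the fold enrichment 7.12 and 38.5. At chr19:22272282-22272993 the reads were 262 and 284, the expectation 6.0 and 0.588 and the fold enrichment 12.4 and 65.6. The value of 0.588 is about the lowest expectation of the METTL3-sh library. An expectation of 1.0 is also low, so these rises rest on little Input signal in METTL3-sh. Reads were higher in METTL3-sh in all 3 pairs, with log2 ratios of 0.34, 1.32 and 0.12, against a median of 0.21 over the window pairs. The largest decrease was at chr19:57722675-57723291 in W7, with 284 and 184 reads, an expectation of 1.68 and 6.0 and a fold enrichment of 35.1 and 9.70. At chr19:23442409-23442854 in W3 fold enrichment was 22.3 and 6.90, although reads were higher in METTL3-sh (215 and 263). At chr19:58420740-58421237 in W7 fold enrichment was 26.9 and 8.90 with nearly equal reads (186 and 193). In all 3 decreases the expectation was higher in METTL3-sh, reaching 13 against 2.20 in the W3 pair and 7.0 against 1.30 in the last.

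The windows have fixed edges. The first summits inside the 14 edges had a median of 126 reads in NC-sh (26 to 637) and 87 in METTL3-sh (26 to 400), and a median fold enrichment of 10.5 and 9.46. The first summits outside 13 of these edges, the last window having none beyond it, had a median of 338 reads in NC-sh (35 to 5536) and 172 in METTL3-sh (32 to 6092), with a median fold enrichment of 10.5 and 7.97.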

How the data were processed

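For MeRIP, the authors deposited a separate list of peaks for each condition, and none for the Input libraries. The submitters' processing notes name TopHat2 2.0.13, MACS2 2.1.0.20151222, bcl2fastq and the build hg19. The deposited pileup is a signal, the deposited fold enrichment a ratio of pileup to local expectation with a pseudocount of 1, and significance was deposited by the authors as −log10 p and −log10 q. The lists hold no peak below a fold enrichment of 6. Reads at the summit were computed as pileup divided by its step, and the local expectation from pileup and fold enrichment. Lists were compared by an overlap of at least 1 bp. Shares have Wilson and their differences Newcombe intervals, medians order-statistic intervals and count ratios Poisson intervals, all at 95%. They take peaks or pairs as independent, and none covers variation between libraries. Reads at the summit were divided at 50, 100, 200 and 400 for weighting. With 1 library per condition no test was made.

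The windows, named-peak rule and comparisons were chosen with earlier results of these data known. Named are, in the windows, the 3 peaks with most reads and the longest peak per library, the 3 unshared peaks per library with the highest −log10 q, the 3 largest rises and falls of fold enrichment in pairs above the median mean, and the summits at window edges. The KRAB pathway genes listed for this purpose were not analysed here, as no hg19 annotation was used. Alternatives were a filter on −log10 q, moved window edges, leaving out windows, stricter overlaps, other measures and merged peaks. Overlap, pairing and step recovery were tested on simulated data. Python 3.11.15, numpy 2.4.6, pandas 2.3.3, scipy 1.17.1 and matplotlib 3.10.9 were used.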

Additional observations from a re-analysis of the deposited data

How the results depend on the processing

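When only peaks that reached the pooled median −log10 q (36.6) were kept, the count ratio in the windows was 1.30, 92.4% of NC-sh window peaks were shared, the median length was 627.5 bp in NC-sh and 635 bp in METTL3-sh, and median reads were 255 and 256. The same filter gave a count ratio of 1.15 in the rest of chromosome 19 and 1.21 on other chromosomes, so that the windows, lowest of the 3 with all peaks (1.13, 1.22 and 1.31), were highest. The cause was not tested. When the overlap had to cover 50% of each of the 2 peaks, 68.4% (NC-sh) and 60.5% (METTL3-sh) of window peaks were shared. Summits within 100 bp gave 70.7% and 62.5%. Under the filter and these overlap rules, shares were computed for the windows only. Whether window peaks were then still shared more often than other peaks was not tested. In place of fold enrichment, pileup gave a median log2 ratio of 0.36 and 7.12% of window pairs doubled, with 2.68% in the rest of chromosome 19, reads 3.91% doubled, with 1.79% in the rest, and −log10 q a median of 0.42 and 21.0% doubled, with 11.2% in the rest. The cause was not tested here either. The doublings were added as a result after the data were seen. The other 52 of 68 recomputed values stayed within the interval of the value reported. These include all values with the windows narrowed or widened by 100 kb, with each window left out in turn or with peaks within 1000 bp merged. Leaving out each window moved the count ratio between 1.11 and 1.17 and the share of doublings between 9.78%, without W3, and 14.1%, without W4. No recomputed window value changed sign, but these log2 ratios have no fixed zero. With the −log10 q filter, the median log2 ratio of fold enrichment in window pairs was 0.10, and its interval (-0.045 to 0.31) included 0. The order of the count ratios between regions turned as given above. No paired analysis was possible because NC-sh and METTL3-sh have 1 MeRIP library each. Depth limits the shallow peaks, and 1 library per condition limits every difference between NC-sh and METTL3-sh.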
